A study of Homo sapiens with 4 samples.

Results

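The p53 pathway halts the cell cycle or starts cell death after DNA damage and other stress. Nucleosomes were mapped here around 9 genes of this pathway and of cell-cycle arrest, chosen by name from 20163 protein-coding genes of the annotation. They were the p53 inhibitors MDM2 and MDM4, the cyclin-dependent kinase inhibitors CDKN1A, CDKN1B, CDKN2A and CDKN2B, the pro-apoptotic genes BAX and BBC3, and the stress gene GADD45A. The cells were BE(2)C, an established human neuroblastoma line with amplified MYCN, whose protein N-MYC binds DNA at the E-box CACGTG. One group had received a control siRNA and is labelled wild type. The other had received siRNA against MYCN and is labelled N-myc kd. Both were transfected with Lipofectamine 2000 for 6 h, at 80 nM siRNA per the labels, and were collected the next day. Each group had 2 libraries (n = 2), which the paper calls biological replicates. Nothing in the labels says that these came from separate cultures, so p-values measure only the spread between libraries.

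In MNase-seq, micrococcal nuclease cuts the DNA between nucleosomes and the protected fragments are sequenced. Each deposited nucleosome is a stretch of fixed length, that of 1 nucleosome core, with a dyad (its midpoint), a read count and a fuzziness, which is the SD in bp of the reads around the dyad. Active promoters are known to carry a gap just upstream of the transcription start site (TSS), between the −1 nucleosome and the +1 nucleosome. The lists held 10527010 to 12178724 nucleosomes and 147370973 to 242544884 reads per library. Both libraries numbered 2 were the deeper ones, with a median of 18 reads per nucleosome against 12. No nucleosome with fewer than 6 reads was listed, and calls did not overlap, so a place without a call was not shown to be bare. In bulk chromatin, a nucleosome in fewer cells and a weaker nucleosome in all cells cannot be told apart. The amplification of MYCN was checked at MYCN itself, whose promoter held 89.5 to 118 times the reads of the median promoter in the 4 libraries. This does not tell BE(2)C from another line with amplified MYCN. Transcript data were not used here, so neither the knockdown nor the expression of the 9 genes was checked.

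Sequences were shown first where they bear on the maps. MYCN and its partner MAX bind CACGTG, which reads the same on both strands, and this motif was searched on the reference. BAX stood out by its sequence. The 200 bp directly upstream of its TSS (GRCh37, chr19:49457932-49458131, plus strand, upstream of exon 1 with no UTR overlap) are printed with each CACGTG in capitals.

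BAX promoter: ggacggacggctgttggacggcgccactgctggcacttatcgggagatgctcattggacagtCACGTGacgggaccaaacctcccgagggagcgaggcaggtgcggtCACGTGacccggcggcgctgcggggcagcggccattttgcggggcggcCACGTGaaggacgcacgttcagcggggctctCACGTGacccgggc

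The 4 E-boxes were centred at −136, −91, −43 and −12 bp from the TSS. Among 20163 promoters, 6 (0.0298%) had 4 or more CACGTG between TSS−200 and TSS+50, and 7.84% had at least 1. No other gene of the 9 had one in this window. Outside it, CACGTG lay at +460 bp in intron 1 of MDM2, at +1355 bp in intron 1 of MDM4, at −1395 bp from CDKN2A, at +1717 bp in intron 4 of BAX, and at −1698, −372, +779 and +1634 bp from BBC3. CDKN1A, CDKN1B, CDKN2B and GADD45A had none within 2 kb.

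The p53 protein binds a pair of adjacent half-sites. The 20-base consensus of the pair, with no spacer, was searched on the reference within 2 kb of each TSS, allowing 2 mismatches. It reads the same on both strands, and 9.21% of all promoters held such a match, whereas 0.69% held one with at most 1 mismatch. As examples, matches of MDM2, CDKN1A and GADD45A, which are textbook targets of p53, are shown, and those of MDM4, BAX and BBC3 are listed below. Capitals mark bases that fit the consensus, and lower case marks mismatches.

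MDM2 intron 1, chr12:69202703-69202722, plus strand: GGtCAAGTTCAGACAcGTTC
CDKN1A upstream TSS, chr6:36644226-36644245, plus strand: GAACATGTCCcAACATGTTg
GADD45A intron 3, chr1:68152458-68152477, plus strand: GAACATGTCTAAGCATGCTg

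The MDM2 match was centred at +755 bp and the GADD45A match at +1583 bp. The CDKN1A match was centred 2 bp upstream of the most upstream TSS of the gene, which lies at −2254 bp from the canonical one. It came from a further search around that TSS, so the shares of promoters above, counted at canonical TSSs, do not cover it. Further matches with 2 mismatches lay at +536 bp in intron 1 of MDM4, at −1374 bp from CDKN1A, at +347 bp in intron 1 of BAX and at −1379 bp from BBC3. CDKN1B, CDKN2A and CDKN2B had no match with 2 mismatches or fewer. A match is a description of letters and not a bound site.

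To examine whether promoter occupancy moved with MYCN knockdown, the reads of called nucleosomes were summed from TSS−2 kb to TSS+1 kb. The counts were taken as unscaled, although the study describes its occupancy values as normalized. None of the 9 promoters passed edgeR's quasi-likelihood test between the groups after Benjamini-Hochberg adjustment (adjusted p = 0.999 for each). Nor did any of the 20106 promoters tested (0.0% called). At an unadjusted p under 0.05, 634 promoters (3.15%) and 0 of the 9 passed with edgeR, and 210 promoters and 0 of the 9 passed with DESeq2. The log2 change of knockdown over control ran from −0.22 to 0.26 over the 9 genes with a median of −0.01. Over all promoters, the 5th and 95th percentiles were −0.26 and 0.27.

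MDM2 encodes the ubiquitin ligase that degrades p53. It spans 69201957 to 69239324 on the plus strand of chromosome 12. Values are given for replicate 1 and then replicate 2 of each group. The MDM2 promoter held 143 and 225 control reads against 140 and 298 after knockdown. In RPM, reads scaled to a list total of 1000000, this was 0.968 and 0.928 against 0.95 and 1.25. Knockdown replicate 2 was thus high, while knockdown replicate 1 lay between the controls. The log2 change was 0.26 (SE 0.15, unadjusted p = 0.0957, adjusted p = 0.999), and 0.04 without knockdown replicate 2. Within 1 kb on either side of the TSS it was 0.44 (adjusted p = 1).

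MDM4, the relative of MDM2 that masks the p53 activation domain, spans 204485507 to 204527248 on the plus strand of chromosome 1. Its promoter held 190 and 282 reads in the controls and 186 and 288 in the knockdown libraries, with a log2 change of 0.04 (SE 0.14). The groups overlapped.

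CDKN1A encodes p21, the inhibitor through which p53 arrests the cycle, and spans 36644237 to 36655114 on the plus strand of chromosome 6. Its reads were 172 and 276 in the controls and 161 and 262 in the knockdown libraries. In RPM they were 1.16 and 1.14 against 1.092 and 1.095, so both knockdown libraries were slightly lower (log2 change −0.05, SE 0.14). CDKN1B encodes p27 and spans 12838432 to 12875303 on the plus strand of chromosome 12. Its reads were 236 and 315 in the controls and 189 and 332 in the knockdown libraries, and the groups overlapped (log2 change −0.07, SE 0.14).

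CDKN2A, which encodes p16 and, from another first exon, the MDM2 inhibitor ARF, spans 21967751 to 21995300 on the minus strand of chromosome 9. It held 63 and 157 reads in the controls and 83 and 121 in the knockdown libraries (log2 change −0.01, SE 0.28). CDKN2B encodes p15 and is its neighbour, from 22002902 to 22009304 on the minus strand. It held 88 and 109 reads in the controls and 75 and 130 in the knockdown libraries (log2 change 0.05, SE 0.29). For both genes the 2 controls enclosed the 2 knockdown libraries in RPM.

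BAX, which permeabilises mitochondria, spans 49458072 to 49465055 on the plus strand of chromosome 19. Its reads were 183 and 280 in the controls and 159 and 256 in the knockdown libraries, or 1.24 and 1.15 against 1.08 and 1.07 RPM. Both knockdown libraries were lower (log2 change −0.12, SE 0.14, unadjusted p = 0.388). BBC3 encodes PUMA, a BH3-only activator of apoptosis, and spans 47724079 to 47736023 on the minus strand of chromosome 19. Its reads were 203 and 321 in the controls and 219 and 365 in the knockdown libraries, or 1.37 and 1.32 against 1.49 and 1.53 RPM. Both knockdown libraries were higher (log2 change 0.19, SE 0.14, unadjusted p = 0.181).

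GADD45A, a p53-inducible gene of growth arrest and DNA repair, spans 68150884 to 68154017 on the plus strand of chromosome 1. It held 77 and 112 reads in the controls and 53 and 110 in the knockdown libraries, or 0.521 and 0.462 against 0.36 and 0.46 RPM. Knockdown replicate 2 and control replicate 2 were nearly level (log2 change −0.22, SE 0.33, unadjusted p = 0.507). In all, the groups did not overlap with knockdown lower for 3 of the 9 genes (CDKN1A, BAX and GADD45A), against 19.1% of all promoters. They did not overlap with knockdown higher for 1 (BBC3), against 11.9%. With so few genes these counts set no gene apart.

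**Figure D1:**
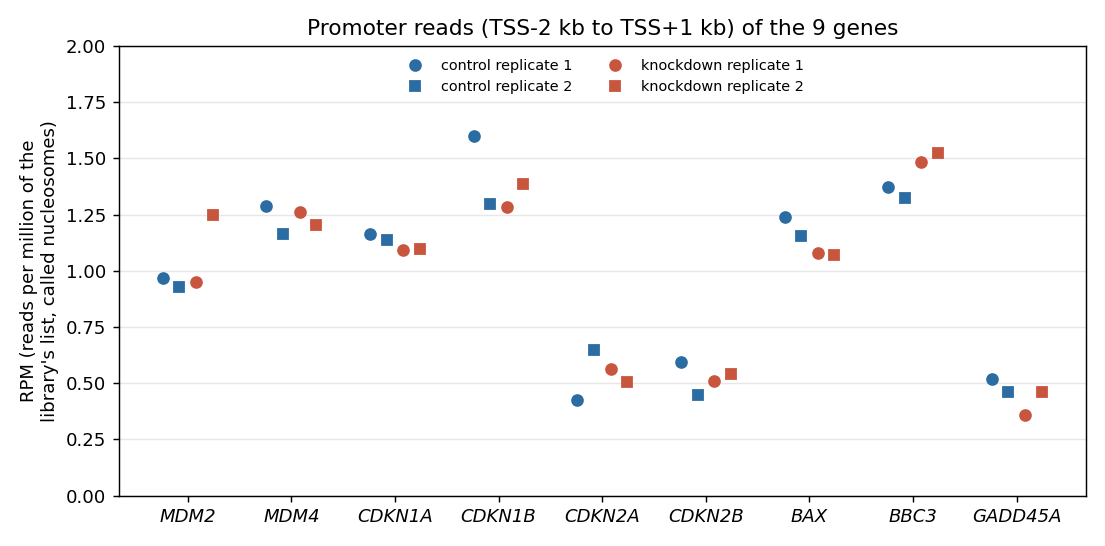
Reads in called nucleosomes between TSS−2 kb and TSS+1 kb (y axis, RPM) for the 9 genes, 1 point per library, blue for control and red for MYCN knockdown. CDKN2A, CDKN2B and GADD45A sit low in all 4 libraries, MDM2 has 1 high knockdown library at 1.25 and CDKN1B 1 high control library at 1.598.

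The levels differed between the genes much more than between the groups. As the mean over 4 libraries of the fold over the median promoter, BBC3 (1.31) and CDKN1B (1.28) were the highest, followed by MDM4 (1.13), BAX (1.043), CDKN1A (1.03) and MDM2 (0.94). CDKN2A (0.493), CDKN2B (0.482) and GADD45A (0.414) were the lowest, at the 7.9th, 7.1st and 3.9th percentile of all promoters. The libraries of these 3 genes overlapped one another and lay below those of the other 6 genes on this scale. Of neighbours in the order of the upper 6, CDKN1B (lowest library 1.189) and MDM4 (highest 1.17) did not overlap, and the other neighbours did. The surroundings moved the same way. The median 10-kb bin within 500 kb of CDKN2A held 0.525 to 0.571 times the median autosomal bin over the 4 libraries, that of CDKN2B 0.523 to 0.571 times and that of GADD45A 0.603 to 0.665 times. Around the other 6 genes it held 1.11 times (CDKN1A) to 1.58 times (MDM4) on average. Set against its surroundings, the promoter level was 0.89 for CDKN2A and 0.88 for CDKN2B, where the median of all promoters was 0.89. It was 0.66 for GADD45A (6.2nd percentile), and little higher for BAX (0.71, 12.4th) and MDM4 (0.72, 12.7th). Of the remaining genes it was lowest for MDM2 (0.8) and highest for CDKN1B (1.01). The part of the surroundings in the low promoter levels was not tested.

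**Figure D2:**
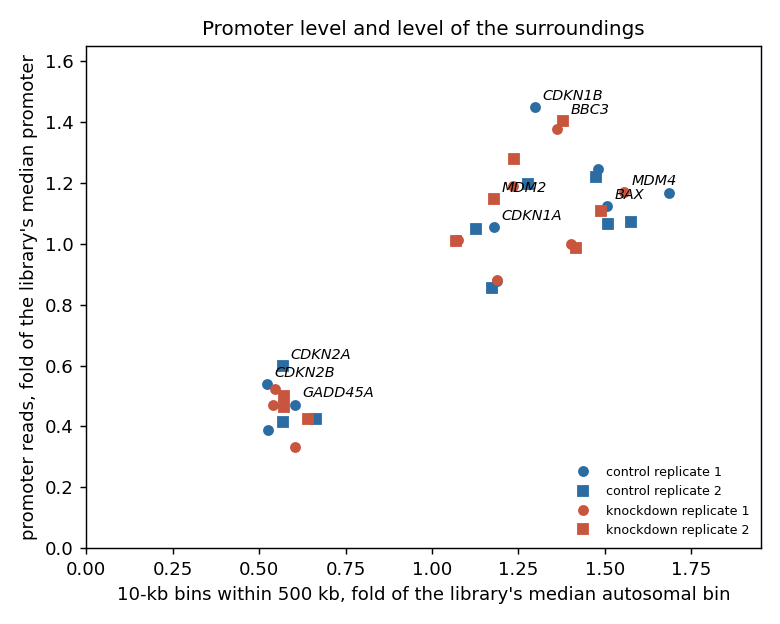
Promoter reads as fold of the library's median promoter (y axis) against the level of the 10-kb bins within 500 kb as fold of the library's median autosomal bin (x axis), 1 point per gene and library. CDKN2A, CDKN2B and GADD45A form the low group on both axes, with surroundings of at most 0.665, in control and knockdown libraries alike.

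The gap at the TSS was then examined. Following the definition of the study, the window from TSS−200 to TSS+50 was called empty when no nucleosome had at least 80% of its length inside it, which means no dyad from −156 to +6 bp. It was empty in all 4 libraries for 4 of the 9 genes, MDM4, CDKN2B, BAX and GADD45A, against 32.3% of 20079 promoters. At CDKN2B this rested on the 80% limit. Nucleosomes with dyads at 18 bp in control replicate 1 and 35 bp in knockdown replicate 2 lay over the TSS, with less than 80% inside. No gene of the 9 had a filled window in all 4. None went from empty in both controls to filled in both knockdown libraries (2.21% of promoters), and none the other way (2.41%). Per library 6, 7, 8 and 6 of the 9 windows were empty (control replicates 1 and 2, then knockdown replicates 1 and 2), and over all promoters 58.4%, 52.6%, 60.3% and 52.1%. The shares were higher in the shallower replicate 1 of both groups.

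Each of the other 5 windows differed between libraries of the same group. For MDM2 a nucleosome of 6 reads, the lowest count listed, was called at −11 bp in knockdown replicate 2 only. For BBC3 one of 7 reads at −125 bp was called in control replicate 2 only. For CDKN2A nucleosomes of 6 reads were called at −40 bp in control replicate 1 and at +5 bp in knockdown replicate 1. These 4 nucleosomes thus held 6 or 7 reads. CDKN1A and CDKN1B were different, because their −1 nucleosome sat on the edge of the window. At CDKN1A its dyad was at −144 and −142 bp in the controls and at −165 and −129 bp in the knockdown libraries, with 15 and 25 against 15 and 16 reads. The window therefore counted as empty in knockdown replicate 1, although a nucleosome of 15 reads lay only 21 bp further upstream than in control replicate 1. At CDKN1B the dyads were at −124, −172, −171 and −129 bp with 10, 11, 6 and 11 reads, in the same order of libraries, and the call followed the dyad.

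**Figure D3:**
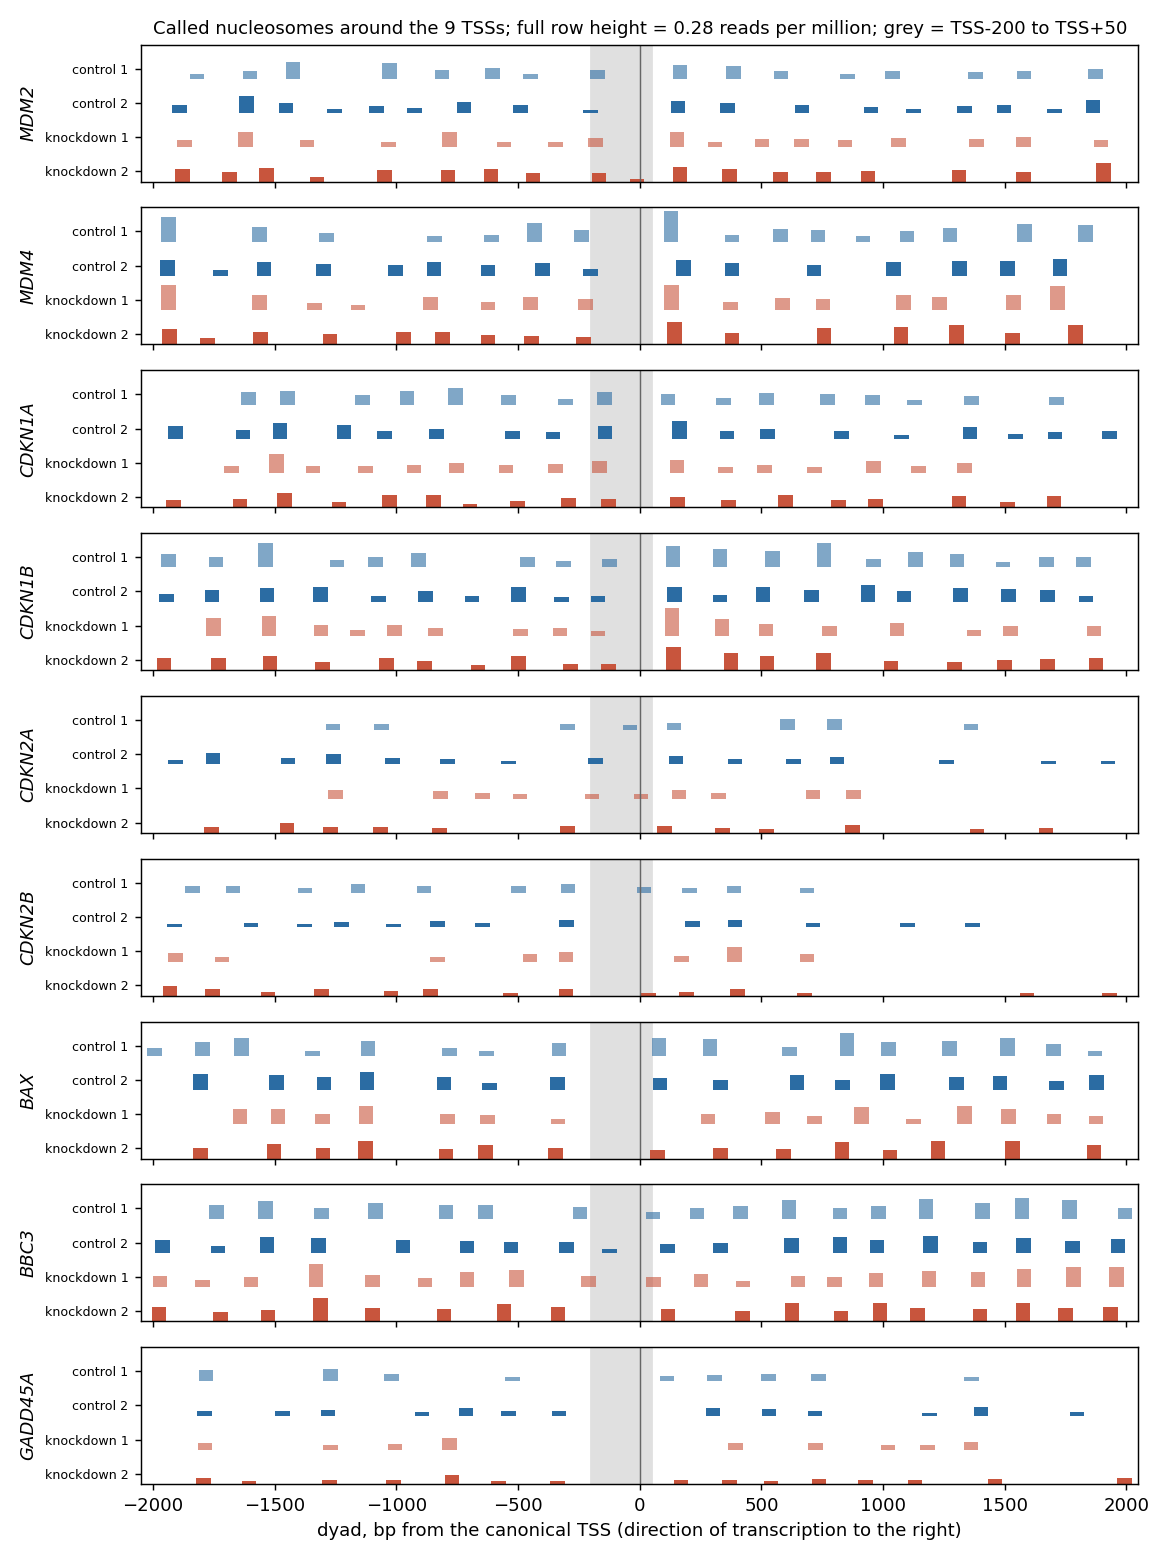
Called nucleosomes within 2 kb of the TSS of each gene (x axis, bp from the canonical TSS), 1 row per library, each bar centred on a dyad with a height proportional to RPM and drawn narrower than a nucleosome. The grey window from TSS−200 to TSS+50 is free of dyads in all 4 libraries for MDM4, BAX and GADD45A, dyads at its downstream edge appear for CDKN2B, and the CDKN1A window holds the −1 nucleosome.

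The +1 nucleosome was compared next. At CDKN1B the +1 nucleosome had its dyad at 137, 142, 133 and 140 bp downstream of the TSS in the 4 libraries, a span of 9 bp. It held 26 and 28 reads in the controls and 33 and 45 in the knockdown libraries. In RPM this was 0.176 and 0.115 against 0.224 and 0.188, so the groups did not overlap. Of all matched nucleosomes, 14.6% were higher after knockdown in this way. At MDM2 the +1 nucleosome was at 165, 158, 154 and 166 bp with 17 and 24 against 18 and 28 reads. In RPM it held 0.115 and 0.099 against 0.122 and 0.117, also higher after knockdown without overlap. At BBC3 the +1 nucleosome was at 54, 115, 57 and 116 bp with 8 and 18 against 12 and 24 reads. In RPM it held 0.0542 and 0.0742 against 0.0814 and 0.1003, again higher without overlap. At MDM4 it was at 128, 179, 130 and 143 bp and held 37 and 32 reads in the controls and 30 and 43 in the knockdown libraries. At CDKN1A it was at 163, 153 and 155 bp in control replicate 2 and the knockdown libraries and closer to the TSS in control replicate 1, a span of 46 bp, with 13 and 35 against 16 and 21 reads. For the +1 nucleosomes of MDM4 and CDKN1A the groups overlapped in RPM. The median +1 dyad of all promoters was at 124 to 128 bp in the 4 libraries.

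BAX had its −1 nucleosome far upstream, at −332 and −337 bp in the controls and at −335 and −346 bp in the knockdown libraries. This nucleosome held 16 and 25 against 7 and 21 reads. In RPM it held 0.108 and 0.103 against 0.0475 and 0.0878, lower after knockdown without overlap. Of all matched nucleosomes, 16.8% were lower in this way. The median −1 dyad of all promoters lay at −167 to −193 bp. The next nucleosome of BAX was at 80 and 84 bp in the controls and at 74 bp in knockdown replicate 2, and held 22, 23 and 16 reads. It was not called in knockdown replicate 1, where the first dyad downstream was at 281 bp. All 4 E-boxes of the printed sequence therefore lay outside called nucleosomes in each of the 4 libraries. Among 1660 CACGTG in this window over all promoters, 42.7% did so, and 19.0% of 6894 within 1 kb of a TSS. The E-boxes of BBC3 at +779 and +1634 bp lay under a called nucleosome in all 4 libraries. Of the 6894 within 1 kb of a TSS, 26.2% did so.

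CDKN2B showed a similar layout upstream, with the −1 dyad at −294, −300, −303 and −303 bp and 11 and 15 against 11 and 14 reads. Downstream its first nucleosome varied, at 18, 217, 173 and 35 bp. GADD45A had the widest gap of the 9. The −1 and +1 dyads were 635 and 632 bp apart in the controls and 1174 and 507 bp apart in the knockdown libraries. Its mean of 737 bp was at the 97.9th percentile of all promoters, while BAX (467 bp) was at the 83.9th and CDKN2B (411 bp) at the 75.6th. The gap of GADD45A goes with its low counts, since its nucleosomes held a median of 8 to 9 reads per library and the minimum for a call was 6. The part of depth in its width was not tested.

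The distance between the flanking dyads, averaged over the 9 genes, was 341 and 389 bp in the controls and 450 and 358 bp in the knockdown libraries. The difference was 38.7 bp (SDs 34.2 and 65.1 bp, n = 2 each, two-sided exact permutation test p = 0.667, where 0.333 is the smallest p this design allows). The same-numbered differences had opposite signs, 109 and −31.4 bp. Leaving out knockdown replicate 1, which held the long distances of GADD45A and of BAX (616 bp), turned the difference to −7.28 bp. MDM2 was the 1 gene of 9 whose distances did not overlap with knockdown shorter (338 and 361 against 336 and 177 bp), where 13.6% of promoters did so. For none was knockdown longer without overlap (16.1% of promoters).

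**Figure D4:**
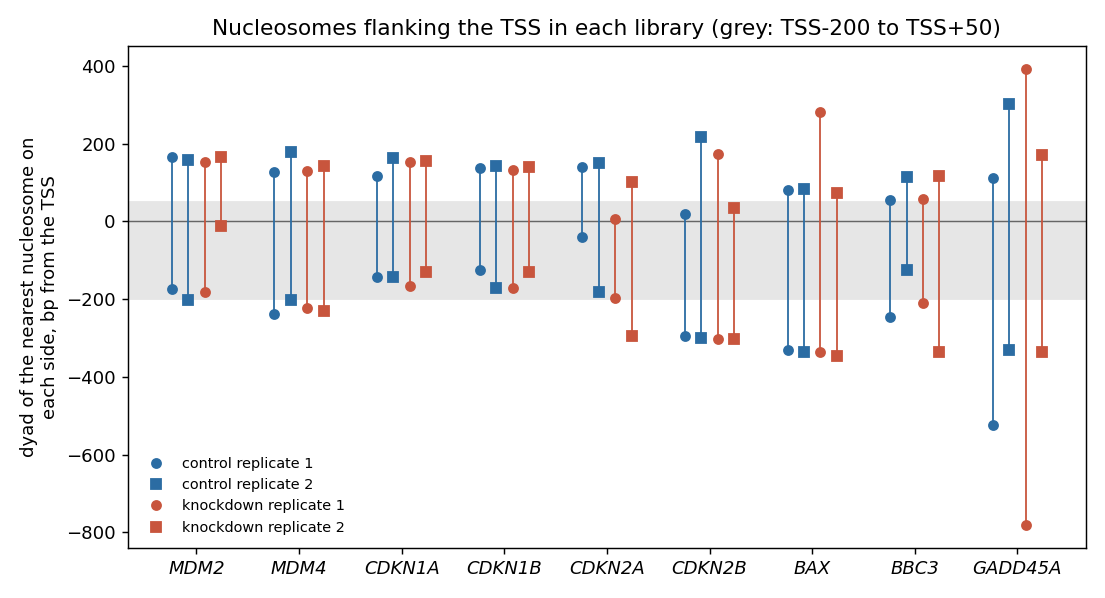
Dyads of the nearest nucleosomes upstream and downstream of the TSS (y axis, bp from the TSS), joined by a line for each gene and library, with control in blue and MYCN knockdown in red. BAX and CDKN2B keep an upstream dyad within 14 and 9 bp in all 4 libraries, CDKN1B and MDM2 keep a downstream dyad within 9 and 12 bp, and the GADD45A lines are the longest, up to 1174 bp.

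The p53 matches were next set against the maps. At MDM2 the match lies upstream of its second TSS, which is 1035 bp from the canonical one and is shared by 8 protein-coding transcripts. In knockdown replicate 2 a nucleosome of 18 reads was centred on the match (dyad distance 0 bp). In the controls the nearest dyad was 99 and 88 bp away, and in knockdown replicate 1 it was 88 bp away, so the match lay between nucleosomes. The window of the second TSS held 10 and 13 reads in the controls and 0 and 21 in the knockdown libraries. Knockdown replicate 1 was therefore the only empty one. The GADD45A match lay outside called nucleosomes in all 4 libraries, with the nearest dyad 219, 180, 221 and 123 bp away, in a region of low counts. The CDKN1A match at its upstream TSS was covered in control replicate 1 and knockdown replicate 1 (dyad 21 and 15 bp away) and not in both libraries numbered 2 (100 and 102 bp). It thus divided the libraries by replicate number and not by siRNA. The matches of BAX and BBC3 lay under a nucleosome in all 4 libraries. That of MDM4 was covered in replicate 1 of both groups only, and that of CDKN1A at −1374 bp in knockdown replicate 1 only. The share of such matches covered over all promoters is not given here, so these descriptions set no gene apart.

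**Figure D5:**
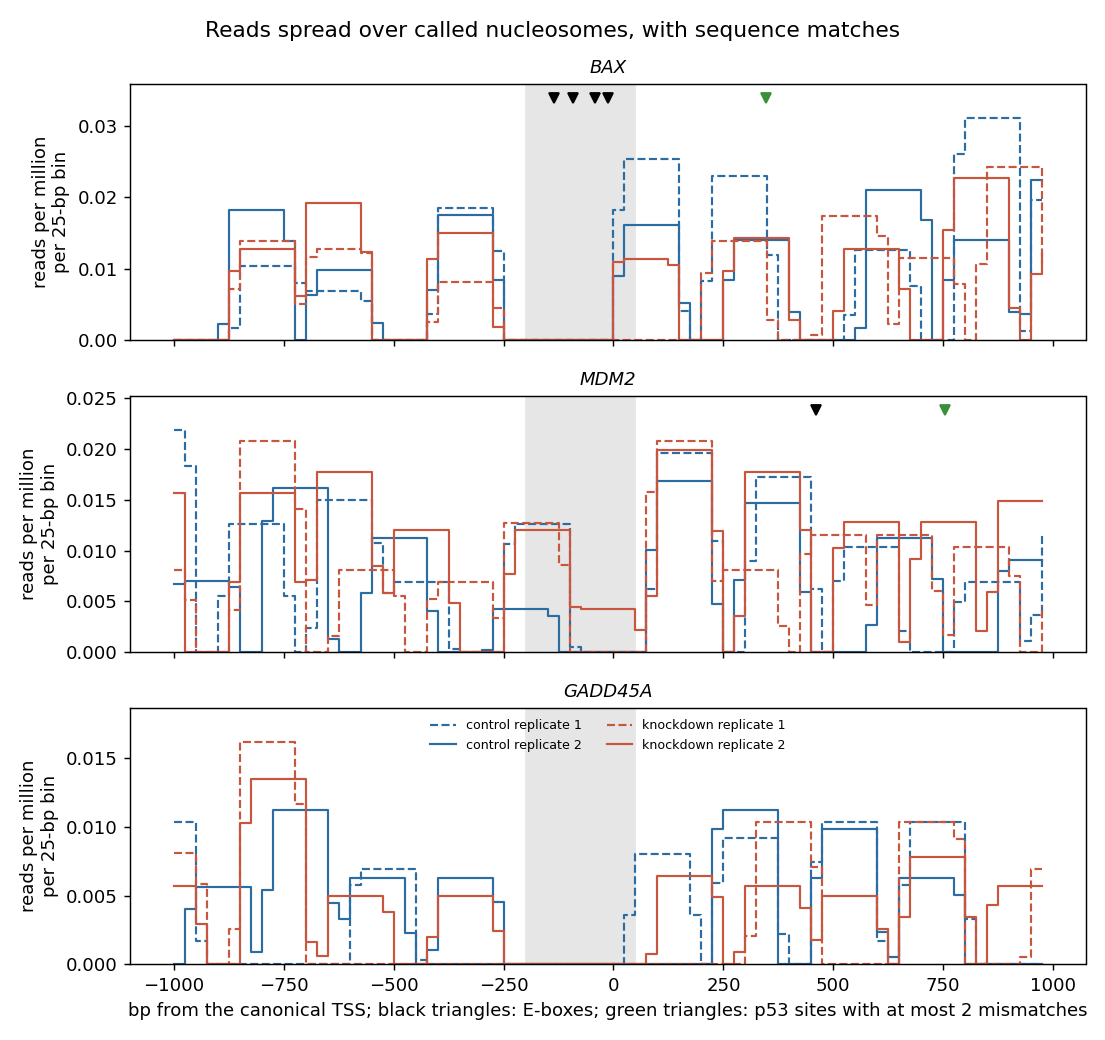
RPM in 25-bp bins (y axis) within 1 kb of the TSS (x axis, bp) at BAX, MDM2 and GADD45A, with the read count of each called nucleosome spread over its length, solid lines for replicate 2 and dashed for replicate 1. Black triangles mark E-boxes and green triangles p53 matches with at most 2 mismatches, and the match of GADD45A lies beyond the plotted range. The 4 E-boxes of BAX lie in a stretch without called nucleosomes in all 4 libraries, and the p53 match of MDM2 falls under a nucleosome in knockdown replicate 2 alone.

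Alternative promoters gave a further view. The upstream TSS of CDKN2A, at −20444 bp from the canonical one, had an empty window in all 4 libraries. At the upstream TSS of CDKN1A the window held 33 reads in control replicate 2 and 0 in the other 3 libraries. At the upstream TSS of BBC3, at −1567 bp from the canonical one, the window held 0 reads in both controls and 12 and 18 in the knockdown libraries. At the canonical TSS, 2.21% of promoters went from empty to filled in this way. The share for upstream TSSs is not given here. In knockdown replicate 2 the dyad was at −156 bp, the last position counted as inside. In the controls the dyads were at −173 and −167 bp, just outside, and held 16 and 13 reads. The move from control replicate 2 to knockdown replicate 2 was 11 bp. In knockdown replicate 1 the call inside was a different nucleosome, with its dyad at −31 bp. Its matched dyads lay downstream of this TSS, at 30 and 35 bp in the controls and at 40 bp in knockdown replicate 2.

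Within 2 kb of the 9 TSSs, 130 and 148 nucleosomes were called in the controls and 129 and 145 in the knockdown libraries. The means were 139 ± 12.7 and 137 ± 11.3 (SD, n = 2, exact permutation p = 0.667). The median fuzziness was 34.4 and 36.0 bp against 34.2 and 36.0 bp (35.2 ± 1.16 and 35.1 ± 1.31 bp, SD, n = 2, exact permutation p = 0.667). The median read count was 13 and 18 against 11 and 19 (exact permutation p = 1, n = 2). All 3 measures followed the replicate number and the depth. CDKN1B and BBC3 had the fullest arrays, with 17 to 20 nucleosomes per library. CDKN2A, CDKN2B and GADD45A had 8 to 15.

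Over the 9 genes 68 nucleosomes were found in all 4 libraries, as mutually closest dyads, which was 45.9% to 52.7% of those called per library. BBC3 had 11, CDKN1B 13, MDM4 12, CDKN1A and BAX 8 each, MDM2 6, CDKN2B 5, GADD45A 3 and CDKN2A 2. Their dyads spanned a median of 40.5 bp over the libraries, against 35 bp for 138350 such nucleosomes of all promoters. Of the 68, 8 (11.8%) spanned at most 10 bp, against 8.47% of all. The smallest span, 8 bp, was shared by 2 nucleosomes of MDM4 and 1 of BBC3. The first of MDM4 was at −1936, −1940, −1937 and −1932 bp and held 30 and 32 control reads against 30 and 31 after knockdown. The second was at 379, 380, 372 and 379 bp and held 8 and 25 reads against 10 and 23. That of BBC3 lay at 1571 to 1579 bp and held 25 and 30 reads against 22 and 36. In RPM, fuzziness and dyad position the groups of these 3 nucleosomes overlapped. A nucleosome of BAX at −1117 to −1126 bp, with a span of 9 bp, held 18 and 36 reads against 22 and 35. Its groups overlapped in RPM, but not in fuzziness (22.7 and 23.2 bp in the controls, 31.5 and 31.7 bp in the knockdown libraries) nor in dyad position (−1117 and −1121 against −1125 and −1126 bp).

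RPM of the matched nucleosomes was higher in both knockdown libraries than in both controls for 12 of 68 (14.6% of all matched nucleosomes were so), and lower for 8 (16.8%). Fuzziness was higher without overlap for 8 (15.6%) and lower for 13 (15.9%). The dyads of the groups did not overlap for 15 (31.1%). BBC3 gave 4 of the 12 with higher RPM and 3 of the 8 with lower RPM. Among its 4 higher ones was a nucleosome at −1307 to −1331 bp. It held 13 and 30 control reads against 28 and 45 after knockdown, or 0.088 and 0.124 against 0.19 and 0.188 RPM. The median distance between paired dyads over the 9 genes was 20.5 and 22 bp between replicates of a group and 17 to 22.5 bp between control and knockdown libraries. For all promoters it was 22 bp and 20 to 23 bp. The mean over control-by-knockdown pairs minus the mean over replicate pairs was −0.625 bp at the 9 genes, less than the spread between the pairs.

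The wider pathway was examined with a list of 56 genes. In the edgeR test 0 rose and 0 fell after adjustment, and 2 (3.57%) had an unadjusted p under 0.05 against 3.15% of all promoters (1 with DESeq2). The median log2 change was 0.01. The lowest log2 changes were those of BCL2L11, which encodes the BH3-only protein BIM, and SFN, the p53-induced 14-3-3 sigma. BCL2L11 held 132 and 172 reads in the controls and 70 and 127 in the knockdown libraries (log2 change −0.62, SE 0.22, unadjusted p = 0.00687, adjusted p = 0.999). SFN held 130 and 237 against 106 and 158 (log2 change −0.42, SE 0.17, unadjusted p = 0.0189, adjusted p = 0.999). The highest was that of the repair gene XPC (64 and 131 against 80 and 173 reads, log2 change 0.40, SE 0.26).

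The window was empty in all 4 libraries for 27 of the 56 genes (48.2%, against 32.3% of all promoters), BCL2L11 and XPC among them. It was filled in both controls and empty in both knockdown libraries for SFN (8 and 17 reads against 0 and 0) and for the cyclin gene CCND2 (19 and 23 against 0 and 0). These 2 genes were 3.57% of the list, against 2.41% of all promoters. The reverse held for TNFRSF10B, a death receptor gene (0 and 0 against 7 and 12), 1.79% of the list against 2.21%. CCND2 and TNFRSF10B are named because of these counts and were picked after their values were seen.

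For each of the 9 genes the promoter with the most alike profile was sought among 20031 promoters, as Pearson's r over 80 bins of 25 bp of the mean of the 4 libraries. The bins share libraries and neighbouring bins share nucleosomes, so r is a description. Each r is also the largest of those for 20031 promoters, so its height alone sets no partner apart. Profiles of single libraries were less alike. Between 2 libraries of the same promoter, the median r of all promoters was 0.43 to 0.46. It was 0.31 to 0.74 for CDKN1B and 0.04 to 0.45 for BBC3. The highest r was that of CDKN1B with UHMK1 (0.834), followed by MDM4 with MCOLN1 (0.807), MDM2 with NPLOC4 (0.805) and BAX with RAB1B (0.794). CDKN1A was most like HEXA (0.764), GADD45A most like PIH1D1 (0.744), CDKN2A most like CNTF (0.734), CDKN2B most like CCPG1 (0.715) and BBC3 most like RAB8B (0.686).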

How the data were processed

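Nucleosomes were mapped by MNase-seq in 2 control and 2 MYCN knockdown libraries. The submitters' processing notes name CASAVA 1.9, Trim Galore 0.4.4, Bowtie2 2.2.4 and hg19. Read pairs of mapping quality above 10 were kept by the authors, duplicates were dropped, and Genetrack called nucleosomes in each library. The deposited read count counts, in whole numbers, the midpoints of read pairs at each nucleosome. The study describes occupancy as normalized, but the values are whole and their totals unequal, so they were treated as unscaled counts. Fuzziness was deposited beside it. Totals are reads in called nucleosomes and not sequencing depth, and sums miss places with fewer than 6 reads.

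The TSS was that of the canonical transcript in GENCODE on GRCh37, the build of the files. Summed counts from −2 kb to +1 kb were tested with edgeR 4.0.16 in R 4.3.3 (quasi-likelihood, TMM scaling, mean of at least 10 reads, Benjamini-Hochberg over all promoters), with the group as the only term, and with DESeq2 1.42.0 as an alternative. Other group differences used exact permutation tests. Nucleosomes were matched over the 4 libraries as mutually closest dyads, under 74 bp apart in every pair of libraries. For distances between libraries, mutually closest dyads were paired where their nucleosomes overlapped by more than 30 bp. Sequences are from the GRCh37 genome.

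The 9 genes and the list of 56 were chosen with earlier results of these data known. Named list genes were those past an adjusted p of 0.05 or else the 2 largest rises and falls. One of these genes is not reported here. Same-numbered libraries were not taken as pairs, since the labels give a number only.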

Additional observations from a re-analysis of the deposited data

How the results depend on the processing

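Of 228 alternative values for 21 results, 24 turned in direction and 9 others were counted as moved. Values not counted as moved could still differ by over 1.5 times. The MDM2 log2 change of 0.26, for example, was 0.04 without knockdown replicate 2. No gene of the 9 was called under any alternative. Without knockdown replicate 2, 1 promoter was called, and leaving out a library gave 0 to 1. The direction turned for log2 changes that were near 0: with the most upstream TSS for CDKN1A (0.16), CDKN1B (0.07) and CDKN2A (0.31), with 1 kb on both sides for CDKN2A (0.21), and without 1 library for MDM4 (range −0.03 to 0.10), CDKN1B (−0.22 to 0.06), CDKN2A (−0.26 to 0.35), CDKN2B (−0.14 to 0.25) and the list median (−0.022 to 0.018). The number of windows empty in all 4 libraries was 4 by the main rule and 3 with an overlap of 50% of the length. It was 6 at equal depth, and 0 with any overlap counted, as that rule is stricter. Loss of the gap was 1 with the most upstream TSS, and 0 to 1 without 1 library, as was formation. The difference in flanking distance was −34.2 bp with the most upstream TSS and −7.28 to 84.7 bp without 1 library. Around the 9 genes the knockdown minus control difference was −2 nucleosomes, but 5.5 at equal depth and with the most upstream TSS, and −11 to 7 without 1 library. That in median reads was −0.5, but 0.75 with the most upstream TSS and −4.5 to 3.5 without 1 library. That in median fuzziness was −0.127 bp, but 0.29 bp at equal depth, 0.587 bp with the most upstream TSS and −1.05 to 0.798 bp without 1 library. These 3 differences had no stable direction. Dyad distances between groups minus those between replicates were −0.625 bp, −4.12 bp with the most upstream TSS, 0.25 bp over same-numbered pairs and −3.0 to 1.25 bp without 1 library. For these 5 measures the cause was not tested. Same-numbered libraries deviated together (correlation 0.294 across promoters, 2 pairs only), and with the replicate number as a block 0 promoters were called and the MDM2 change stayed 0.26 (adjusted p = 0.868). At 11 to 19 reads per nucleosome in the median, a single missing nucleosome rests on few reads.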
